A study of Rattus norvegicus with 8 samples.

Results

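The genes described here encode the proteins of nucleotide excision repair, base excision repair, mismatch repair and translesion DNA synthesis. Members were the rows of the deposited count table whose symbol equals 1 of 37 listed names. Of these, 36 had a row, among 24059 in the table, and Msh3 was not analysed here. All 36 passed the filter on low counts that left 16976 genes for testing, so none was kept or lost through 1 group alone.

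The data are polyA RNA sequencing of GFP-positive germ cells sorted out of prepubertal rat testis. All rats were transgenic Sprague-Dawley animals with the GCS-EGFP germ cell reporter. On postnatal day 6, 4 rats received doxorubicin at 5 mg/kg and 4 received vehicle, and cells were taken 24 h later. Control libraries came from rats 1, 4, 5 and 9 and doxorubicin libraries from rats 2, 3, 6 and 8. Doxorubicin is an anthracycline that poisons topoisomerase II, intercalates into DNA and generates oxidants. The comparison asks how much the transcripts of these repair genes differed a day after a dose in the living animal.

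Nucleotide excision repair cuts out a short stretch of a damaged strand after bulky adducts have been recognised, either anywhere in the genome or where RNA polymerase has stalled. Base excision repair starts with a glycosylase that removes 1 altered base, such as an oxidised or deaminated one, and ends with gap filling and sealing of the nick. Mismatch repair corrects replication errors, and translesion polymerases copy past lesions that stop the replicative enzymes. Spermatogonia pass their genome to the next generation, and excision and mismatch repair help keep their mutation rate low.

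Total estimated counts per library ran from 41253800 to 58871100, and every member had at least 146 counts in each library. Levels are given as CPM (counts-per-million, TMM-scaled), with SD over 4 rats. They are not divided by transcript length, so they are not compared between genes. Germ cell markers were detected in every library. The 6 pan-germ cell markers summed to between 1768 and 1865 CPM in controls and between 1835 and 1906 CPM in treated rats. For 6 genes of undifferentiated spermatogonia the sums were 1150 to 1317 and 1124 to 1308 CPM. For 4 of differentiating spermatogonia they were 206.3 to 259.7 and 194.6 to 247.4 CPM. Kit, Stra8, Sohlh1 and Dmrtb1 of that list had log2 fold changes of -0.18, -0.06, -0.09 and -0.40, none past edgeR or DESeq2. The summed markers of each cell type other than germ cells overlapped between the groups. Controls ranged from 44.2 to 52.95 CPM and treated libraries from 44.9 to 53.6 CPM for 8 Sertoli genes, and from 74.2 to 87.3 and 85.0 to 95.1 CPM for 5 endothelial genes. Inha, at a control mean of 28.5 CPM, made up most of the Sertoli sum, and Pecam1, at 70.7 CPM, most of the endothelial sum. The sums were 48.2 to 62.5 and 43.2 to 58.9 CPM for 6 peritubular and stromal genes, 5.83 to 8.07 and 4.22 to 9.56 CPM for 5 Leydig genes, and 2.59 to 2.86 and 2.84 to 3.37 CPM for 5 macrophage and leukocyte genes. Single stromal markers did not all overlap, since Pdgfra (12.9 to 14.7 CPM in controls, 11.8 to 12.8 CPM in treated rats) and Col1a1 (21.3 to 25.3 and 18.4 to 21.2 CPM) lay lower in every treated library without passing edgeR or DESeq2. Myh11 of that list went the other way, at 3.96 to 6.23 CPM in controls and 5.86 to 14.2 CPM in treated rats. Its groups overlapped, and its log2 fold change was 0.79 (edgeR adjusted p = 0.561). The 4 erythroid genes tested summed to 6.30 to 8.15 CPM in controls and 8.02 to 13.6 CPM in treated rats, and moved in opposite directions. Slc4a1, the anion exchanger of red cells, rose by 1.28 on the log2 scale (edgeR adjusted p = 0.0339). Hbb and Hba-a1, which encode globin chains, lay lower in every treated library, at -1.17 and -0.88, and passed DESeq2 (adjusted p = 0.0243 and 0.0382) but not edgeR (adjusted p = 0.192 and 0.206). Their part in the values of the repair genes was not tested. The drug response was present in the treated libraries. The sum of 8 p53 target genes was 271.7 to 307.2 CPM in controls and 453.6 to 722.5 CPM in treated rats, highest in rat 2. In bulk RNA, fewer cells of a type and less RNA per cell cannot be told apart.

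None of the 36 repair genes differed between doxorubicin and control at an adjusted p below 0.05. This holds for edgeR's quasi-likelihood test, which called 0.112% of all genes tested, and for DESeq2, which called 0.959%. At an unadjusted edgeR p below 0.05, 3 members were higher (Nthl1, Xrcc1 and Rev1) and 0 were lower, against a background of 4.19% of all genes higher and 2.56% lower. Treated libraries lay above all controls for 2 members, Nthl1 and Xrcc1, and below all controls for 0. Over all genes these shares were 2.77% and 1.95%. The median log2 fold change was -0.02 over the members, 13 positive and 23 negative, and -0.0047 over all genes tested. Members ran from -0.14 for Mbd4 to 0.18 for Nthl1.

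The size of difference that the libraries allow was small for most members. The 95% interval of the fold change lay within 1.5-fold in either direction for all 36 members, and within 1.2-fold for 29. Over all genes tested, which include many with fewer counts, these shares were 77.4% and 48.0%. The 7 members whose interval reached past 1.2-fold were Xpa, Ercc1, Mbd4, Neil1, Nthl1, Polk and Polh. For 11 members the interval lay within 1.1-fold: Xpc, Rad23b, Ddb1, Ddb2, Ercc6, Parp1, Parp2, Msh6, Mlh3, Pms1 and Pms2. That is 30.6% of members, against 17.7% of all genes tested. These intervals are for single genes and were not widened for the number of genes.

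**Figure D1:**
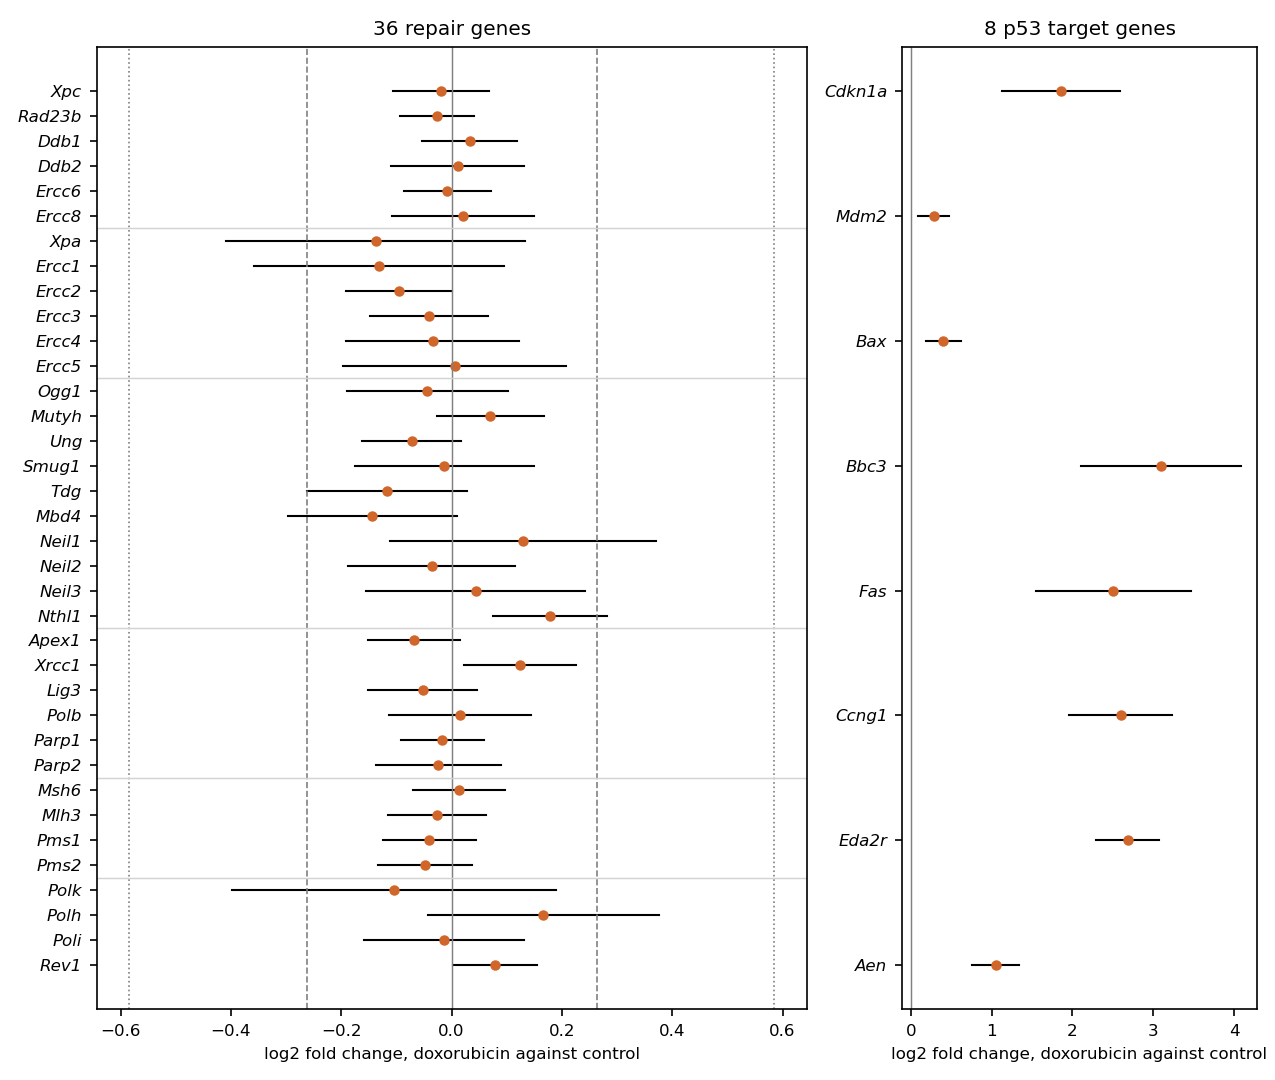
Log2 fold change of doxorubicin against control for the 36 repair genes by role (left) and for 8 p53 target genes (right, wider axis). Points are edgeR estimates, lines are 95% intervals, dashed and dotted lines mark 1.2-fold and 1.5-fold. All repair gene intervals lie inside the dotted lines, and 7 cross a dashed line.

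Among the genes of damage recognition in nucleotide excision repair, log2 fold changes ran from -0.03 to 0.03 (6 of 6 tested, 3 positive and 3 negative). Xpc (ENSRNOG00000008274.4) encodes the sensor of distorted DNA in the whole genome. It measured 113.8, 108.9, 116.2 and 109.7 CPM in control rats 1, 4, 5 and 9, and 111.1, 106.1, 108.6 and 117.0 CPM in doxorubicin rats 2, 3, 6 and 8. The groups overlapped throughout, with a log2 fold change of -0.02 and a 95% interval from -0.11 to 0.07 (edgeR adjusted p = 0.979). Rad23b, the partner that stabilises Xpc, stood at 315.7 ± 6.04 CPM in controls and 310.0 ± 7.07 CPM in treated rats (SD, n = 4 each).

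Ddb1 and Ddb2 form the UV-DDB complex, which finds lesions in chromatin and belongs to a ubiquitin ligase. Ddb2 (ENSRNOG00000014071.9), which has been reported as a p53 target in other cells, stood at 27.0, 26.7, 25.0 and 24.0 CPM in controls and 25.4, 25.8, 26.7 and 25.7 CPM in treated rats. All treated values fell inside the control range, and the 95% interval ran from -0.11 to 0.13 on the log2 scale. Ddb1 (ENSRNOG00000020715.8) measured 741.7, 706.6, 668.6 and 670.8 CPM in controls and 728.2, 728.5, 679.9 and 716.1 CPM in treated rats. Its treated values likewise lay within the control range. Ercc6 and Ercc8, the CSB and CSA proteins that act at stalled RNA polymerase, had log2 fold changes of -0.01 and 0.02. Ercc8 measured 17.3, 16.8, 17.5 and 16.0 CPM in controls and 16.9, 17.1, 17.6 and 17.1 CPM in treated rats, and the groups overlapped.

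The genes of opening, verification and incision had a median log2 fold change of -0.07, with 5 of 6 negative and 0 past the edgeR or DESeq2 threshold (0 at an unadjusted edgeR p below 0.05). Ercc2, the XPD helicase of TFIIH, stood closest to that bound. It measured 81.0 ± 4.20 CPM in controls and 75.8 ± 1.80 CPM in treated rats, a log2 fold change of -0.10 ± 0.04 (SE, edgeR unadjusted p = 0.0501, adjusted p = 0.736). Control rat 1, at 74.9 CPM, lay below 3 of the 4 treated rats. Ercc3, the XPB translocase of the same complex, measured 82.0, 89.3, 95.9 and 91.2 CPM in controls and 83.1, 87.6, 91.1 and 86.5 CPM in treated rats, inside the control range.

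Xpa, the scaffold that verifies the lesion, was among the least deeply counted members. It had 5.05, 3.54, 4.06 and 4.00 CPM in controls and 3.75, 4.04, 3.48 and 3.85 CPM in treated rats. The groups overlapped, and control rat 1 stood above every other library. Its interval, from -0.41 to 0.13 on the log2 scale, allows a larger fall than for most members. The nuclease subunits Ercc1 and Ercc4, which cut on the upstream side, had log2 fold changes of -0.13 ± 0.10 and -0.03 ± 0.07 (SE). Ercc5, the XPG nuclease of the downstream side, measured 16.6, 18.7, 19.4 and 20.2 CPM in controls and 15.6, 21.3, 19.5 and 18.8 CPM in treated rats. Doxorubicin rats 2 and 3 held both extremes of the 8 values, and the log2 fold change was 0.01 (95% interval -0.20 to 0.21).

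**Figure D2:**
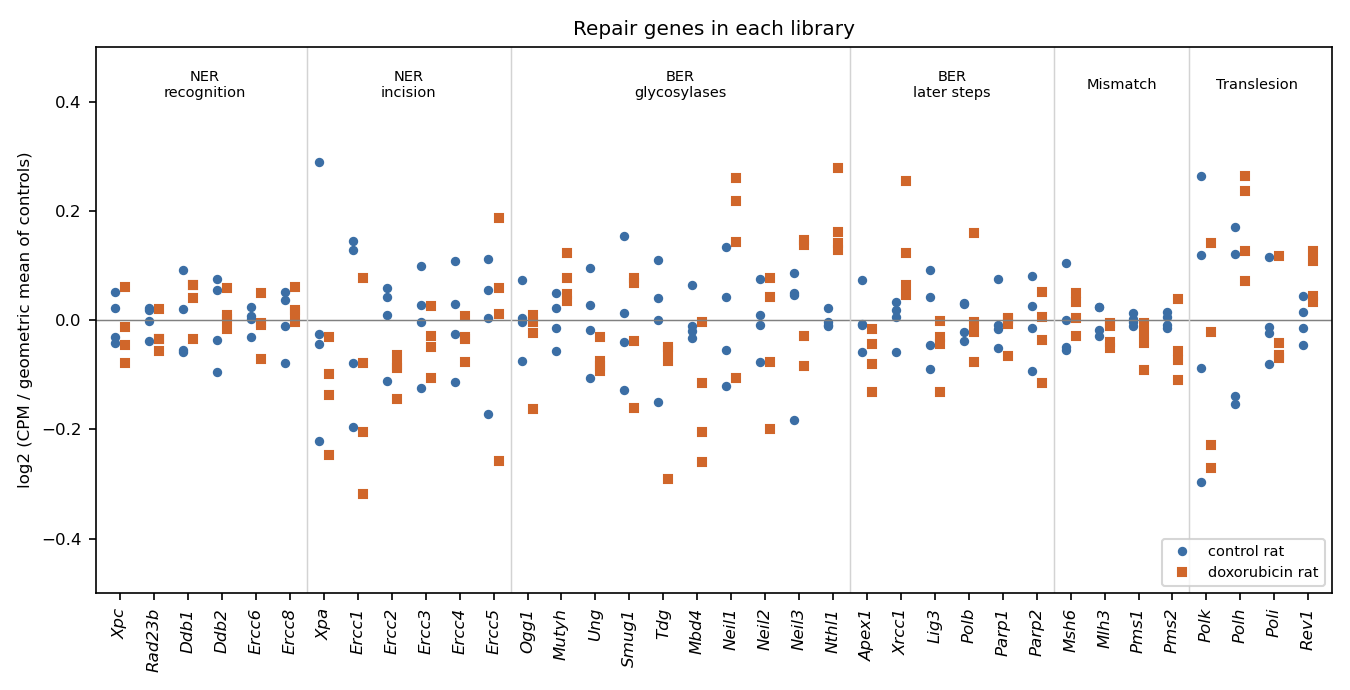
Log2 of CPM in each library over the geometric mean of the 4 control libraries, for the 36 repair genes ordered by role; NER and BER are nucleotide and base excision repair. Circles are control rats and squares doxorubicin rats. The groups overlap except for Nthl1 and Xrcc1, whose squares all lie above the circles.

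The base excision glycosylases held the member with the smallest p. Nthl1 (ENSRNOG00000012213.7) encodes a glycosylase for oxidised pyrimidines that also nicks the strand. It measured 34.7, 35.3, 34.5 and 34.6 CPM in control rats 1, 4, 5 and 9, and 42.2, 38.0, 38.4 and 38.9 CPM in doxorubicin rats 2, 3, 6 and 8. All 4 treated libraries lay above the controls, whose coefficient of variation was 1.05%, and rat 2 was the highest. That variation was below the 2.63% that counting error alone gives at the lowest count of Nthl1, so it is not a measure of how rats differ. The log2 fold change was 0.18 ± 0.05 (SE), a fold change of 1.05 to 1.22 by its interval, with an unadjusted edgeR p of 0.00273. With adjustment over all genes Nthl1 missed the threshold (adjusted p = 0.266 in edgeR and 0.0546 in DESeq2), and over the other fits and left-out libraries the adjusted p ran from 0.17 to 0.611. Without doxorubicin rat 2 its log2 fold change was 0.14 (edgeR adjusted p = 0.599).

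The other 9 glycosylases did not reach an unadjusted p below 0.05. Ung, the main uracil glycosylase of replicating cells, had 276.7, 255.9, 264.0 and 240.6 CPM in controls and 246.0, 244.4, 242.8 and 253.5 CPM in treated rats. The treated values sat in the lower part of the control range, with control rat 1 above all others and control rat 9 below all others. Its log2 fold change was -0.07 ± 0.04 (SE, edgeR adjusted p = 0.814). Tdg and Mbd4, which remove thymine or uracil opposite guanine, had log2 fold changes of -0.12 ± 0.07 and -0.14 ± 0.07 (SE, edgeR adjusted p = 0.813 and 0.773). For Mbd4, doxorubicin rats 2, 3 and 6 (14.0, 14.5 and 15.4 CPM) lay below all controls (16.3 to 17.5 CPM), and doxorubicin rat 8 (16.7 CPM) lay among them. Smug1, a second uracil glycosylase, differed by -0.01 on the log2 scale.

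Ogg1 and Mutyh act on 8-oxoguanine, the first removing it opposite cytosine and the second removing adenine paired with it. Ogg1 stood at 15.3 ± 0.64 CPM in controls and 14.8 ± 0.80 CPM in treated rats, and Mutyh at 40.5 ± 1.28 and 42.5 ± 1.16 CPM (SD, n = 4 each). Their log2 fold changes of -0.04 and 0.07 had edgeR adjusted p values of 0.964 and 0.853. Neil1, Neil2 and Neil3, glycosylases of oxidised bases, had log2 fold changes of 0.13, -0.04 and 0.04. Neil1 measured 5.21, 4.89, 4.57 and 4.36 CPM in controls and 4.41, 5.68, 5.24 and 5.52 CPM in treated rats. There 3 treated rats lay above all controls, while rat 2 was among the lowest of the 8 libraries.

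After the glycosylase step, Xrcc1 (ENSRNOG00000019915.6) was the other member whose groups did not overlap. It encodes the scaffold that brings ligase and polymerase to single-strand breaks. It measured 117.7, 124.2, 125.5 and 123.0 CPM in controls and 146.3, 128.1, 126.5 and 133.5 CPM in treated rats. The treated libraries were higher by a narrow margin, 126.5 CPM in the lowest against 125.5 CPM in the highest control, and rat 2 was well above the rest. The log2 fold change was 0.12 ± 0.05 (SE, edgeR unadjusted p = 0.0204, adjusted p = 0.584). Without doxorubicin rat 2 it was 0.08 (edgeR adjusted p = 0.926).

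No other gene of these later steps had an unadjusted edgeR p below 0.05. Lig3, the ligase bound to Xrcc1, stood at 136.7 ± 7.74 CPM in controls and 131.8 ± 5.01 CPM in treated rats. Polb, the gap-filling polymerase, had 25.7, 26.7, 26.7 and 25.4 CPM in controls and 24.8, 25.7, 29.2 and 26.1 CPM in treated rats, overlapping with doxorubicin rat 6 highest. Apex1, the endonuclease that cuts at sites without a base, had a log2 fold change of -0.07 ± 0.04 (SE, edgeR adjusted p = 0.81). Parp1, the main sensor of strand breaks, measured 608.6, 626.9, 623.2 and 664.6 CPM in controls and 602.6, 631.6, 627.7 and 632.3 CPM in treated rats. Its interval ran from -0.09 to 0.06 on the log2 scale. Parp2, its smaller relative, differed by -0.02.

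All 4 mismatch repair genes tested had intervals within 1.1-fold. Msh6, which with its partner recognises base mismatches, measured 535.1, 498.2, 481.3 and 479.2 CPM in controls and 509.4, 499.4, 488.3 and 515.3 CPM in treated rats, with all treated values inside the control range. Mlh3, a MutL subunit that also serves meiotic crossing over, had 44.4, 42.8, 44.4 and 43.2 CPM in controls and 42.2, 43.6, 42.5 and 43.4 CPM in treated rats. The MutL subunits Pms1 and Pms2 had log2 fold changes of -0.04 and -0.05, and their control libraries varied by 0.673% and 0.919% (coefficient of variation). Both were below the 2.20% and 1.66% that counting error alone gives at their lowest counts.

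Of the translesion polymerases, Rev1 alone had an unadjusted edgeR p below 0.05. Rev1 (ENSRNOG00000018623.7) inserts cytosine opposite damaged bases and recruits the other polymerases. It measured 210.3, 201.8, 206.0 and 197.6 CPM in controls and 222.5, 210.1, 208.7 and 219.9 CPM in treated rats. Control rat 1 lay above doxorubicin rats 3 and 6, so the groups overlapped. The log2 fold change was 0.08 ± 0.04 (SE, edgeR unadjusted p = 0.0448, adjusted p = 0.716). Polh, the polymerase that copies past UV dimers and is a reported p53 target in human cells, had 7.92, 9.81, 9.48 and 7.84 CPM in controls and 9.52, 10.3, 10.5 and 9.16 CPM in treated rats. Controls fell into a lower and a higher pair, and the treated rats overlapped with the higher one. Its log2 fold change of 0.17 had an interval from -0.04 to 0.38.

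Polk, which bypasses bulky guanine adducts, measured 5.10, 7.53, 6.81 and 5.90 CPM in controls and 5.35, 6.17, 6.91 and 5.19 CPM in treated rats. It varied by 16.7% within controls, the highest of the members, and its interval was a fold change of 0.759 to 1.14. Poli, a relative of Polh, differed by -0.01 on the log2 scale (95% interval -0.16 to 0.13).

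**Figure D3:**
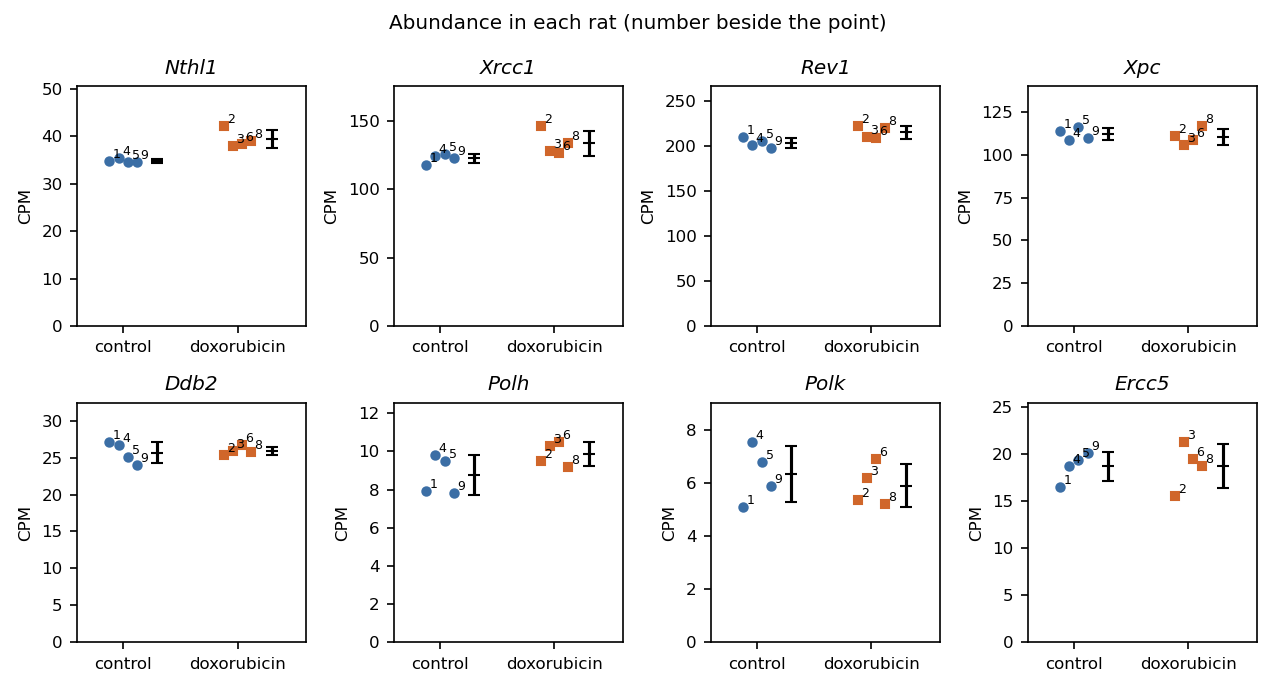
CPM of 8 repair genes in each rat, with the rat number beside each point and the mean and SD (n = 4) to its right; axes start at 0. The upper left panels are the 3 members with an unadjusted edgeR p below 0.05, and the other 5 have been reported as p53 targets in other cells. In Nthl1 and Xrcc1 rat 2 is the highest library.

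Repair genes reported as p53 targets elsewhere (Xpc, Ddb2, Ercc5, Polh and Polk) thus had log2 fold changes between -0.10 and 0.17, none past edgeR or DESeq2. Over the same libraries, the p53 targets Ccng1, Eda2r and Aen rose by 2.59, 2.68 and 1.05 on the log2 scale (edgeR adjusted p = 0.0411, 9.63e-05 and 0.0411). Cdkn1a, Bbc3, Fas and Bax, at 1.86, 3.10, 2.50 and 0.40, missed the edgeR threshold (adjusted p = 0.107, 0.0726, 0.0801 and 0.217) and passed DESeq2 (adjusted p = 6.44e-06, 4.41e-09, 2.67e-08 and 0.00372). Mdm2, at 0.28, passed neither (adjusted p = 0.434 in edgeR and 0.0773 in DESeq2). The upper ends of the intervals were 0.07 for Xpc, 0.13 for Ddb2, 0.21 for Ercc5, 0.19 for Polk and 0.38 for Polh. The lower end was 0.09 for Mdm2 and 0.19 for Bax.

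By the median member, doxorubicin rats 2 and 3 lay below the range of the control libraries. The control mean includes those libraries, which narrows their range, and the difference was not tested. The median member stood at -0.07 on the log2 scale relative to the control mean in doxorubicin rat 2, at -0.03 in rat 3 and within 0.0034 of it in rats 6 and 8. Over the control libraries it ran from -0.0082 to 0.019. Of the 36 members, 9 lay above the control mean in rat 2, 13 in rat 3, 18 in rat 6 and 19 in rat 8. Control libraries had 15 to 24. Neither the medians nor these counts were computed over all genes tested, so they cannot show whether a low library is particular to the repair genes. The coefficient of variation within controls had a median of 5.02% over the members, from 0.673% to 16.7%. Over all genes tested, which include many with fewer counts, the median was 8.28%. Within doxorubicin the median was 4.32% over the members and 7.95% over all genes tested. Of the 36 members, 17 varied more there than in controls, a count that was not made over all genes.

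The other 65 listed genes of these pathways were all tested, and 0 passed edgeR or DESeq2 over all genes, with a median log2 fold change of -0.02. At an unadjusted edgeR p below 0.05, 2 of the 65 were higher and 4 lower, beside 4.19% and 2.56% of all genes tested. Treated libraries lay above all controls for 4 and below all controls for 2, beside 2.77% and 1.95% of all genes tested. The 5 with the smallest p were Zranb3, a fork-remodelling translocase; Ube2b, a RAD6 ubiquitin-conjugating enzyme; Usp1, a deubiquitinase of PCNA; Pole, the leading-strand polymerase; and Pcna, the sliding clamp. Zranb3 measured 57.1, 57.0, 55.0 and 53.4 CPM in controls and 64.3, 59.5, 58.5 and 65.1 CPM in treated rats. Ube2b measured 215.8 to 225.6 CPM in controls and 231.8 to 252.5 CPM in treated rats. Both were higher in every treated library, and Usp1 was lower in every one (183.1 to 201.9 against 203.6 to 216.2 CPM).

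On the log2 scale Zranb3, Ube2b and Usp1 differed by 0.15, 0.11 and -0.11 (edgeR adjusted p = 0.403, 0.434 and 0.496). Pole and Pcna, whose groups overlapped, differed by -0.11 and -0.12 (adjusted p = 0.644 in edgeR for each). By role, 14 of the 17 replication factors shared by these pathways and 5 of 5 other mismatch repair genes were negative. Over all genes tested, 8868 of 16976 were negative. Of the 14 other genes of translesion synthesis and damage tolerance, 8 were positive, and they held 5 of the 6 genes whose groups did not overlap: Zranb3, Ube2b, Spidr and Poln higher and Usp1 lower. The sixth was Rfc1, the large subunit of the clamp loader, at 223.5 to 239.1 CPM in controls and 220.3 to 222.6 CPM in treated rats (log2 fold change -0.05, edgeR adjusted p = 0.856). Treated libraries lay above all controls for 2.77% of all genes tested and below all controls for 1.95%, and no role was tested as a set. Spidr, Poln and Rfc1 were singled out after their values were seen.

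**Figure D4:**
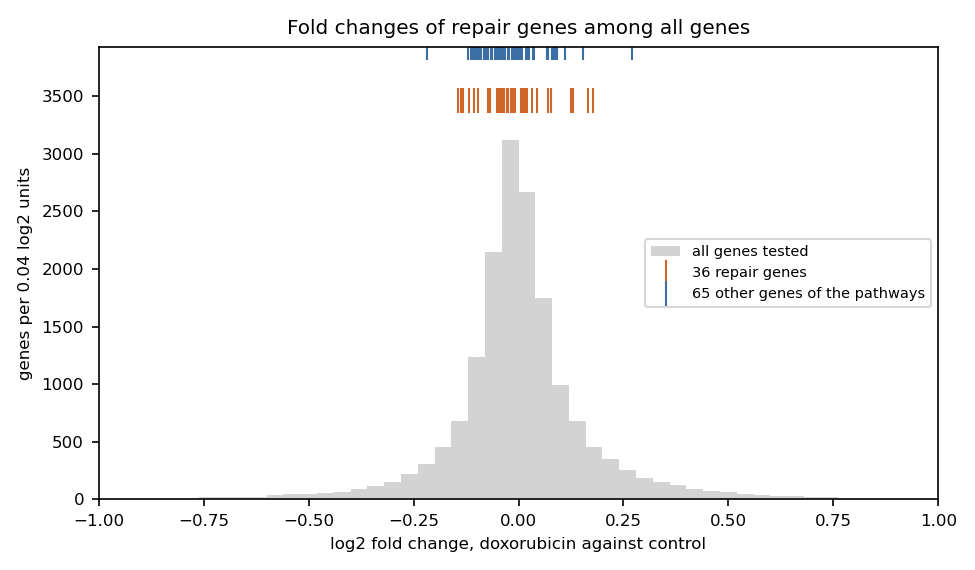
Histogram of log2 fold changes of all genes tested, in bins of 0.04, with the 36 repair genes and the 65 other genes of the same pathways as ticks above it; 84 genes lie beyond 1 log2 unit and are not drawn. The repair genes sit between -0.14 and 0.18, in the central bulk of all genes.

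Promoter sequences from RefSeq (build GRCr8) were matched by symbol for 29 of the 36 members. Ddb2, Xpa, Smug1, Neil2, Neil3, Polb and Pms1 had none and were not searched. The 250 bases before the annotated start are shown for Nthl1 and Xrcc1, the members that lay higher in every treated library, for Xpc as a p53-linked gene that did not, and for Ung, which shares a motif with Nthl1. Capitals mark the CCAAT box, the GC box GGGCGG and an E2F-type motif, searched as TTTCGCGC, as TTTGGCGC, as TTTCCCGC or as TTTGCCGC, each on both strands. Matches of different motifs may overlap. Coordinates in order are chr10:14160084-14160333 (plus strand), chr1:89268939-89269188 (plus), chr12:48154046-48154295 (minus) and chr4:125578085-125578334 (minus).
Nthl1: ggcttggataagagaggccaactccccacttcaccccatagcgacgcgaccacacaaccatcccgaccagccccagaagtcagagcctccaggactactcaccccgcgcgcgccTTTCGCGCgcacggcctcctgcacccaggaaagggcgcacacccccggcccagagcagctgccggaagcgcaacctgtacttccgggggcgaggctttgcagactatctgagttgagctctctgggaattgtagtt
Xrcc1: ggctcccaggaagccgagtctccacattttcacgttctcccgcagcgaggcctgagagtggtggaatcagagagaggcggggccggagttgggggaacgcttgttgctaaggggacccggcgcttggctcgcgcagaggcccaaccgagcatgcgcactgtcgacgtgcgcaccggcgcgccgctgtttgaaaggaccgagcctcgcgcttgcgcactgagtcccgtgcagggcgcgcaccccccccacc
Ung: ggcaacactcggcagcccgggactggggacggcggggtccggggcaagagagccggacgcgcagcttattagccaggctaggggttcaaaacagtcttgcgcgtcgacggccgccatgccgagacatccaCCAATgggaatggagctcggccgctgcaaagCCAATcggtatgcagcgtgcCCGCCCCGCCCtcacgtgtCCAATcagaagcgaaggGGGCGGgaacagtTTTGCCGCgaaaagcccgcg
Xpc: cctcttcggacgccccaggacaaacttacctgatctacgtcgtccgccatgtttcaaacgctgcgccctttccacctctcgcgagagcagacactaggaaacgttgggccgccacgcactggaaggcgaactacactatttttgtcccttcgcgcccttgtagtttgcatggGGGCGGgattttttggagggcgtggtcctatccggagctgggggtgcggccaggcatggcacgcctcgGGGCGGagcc

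Nthl1 and Ung were the only members of the 29 with the E2F-type motif, which occurs in 2.92% of the 14093 promoters of genes tested and 1.74% of all 33356. No member promoter held a full p53 response element (a pair of p53 decamers at most 13 bases apart), which 0.0355% of promoters of genes tested held. At so low a share none is likely in 29 promoters, so this absence cannot set members apart from other genes. Ddb2, a reported p53 target, was not among the promoters searched. A lone p53 decamer was found in Mutyh and Neil1, or 6.90% of members against 5.85% of promoters of genes tested. GC boxes were in 19 of 29 members (65.5%, against 52.1% of promoters of genes tested), and CCAAT in 12 (41.4%, against 34.6%). Members were counted by gene, with a match in any promoter entry, and the background by promoter, so the shares differ in unit. Ercc4, Rev1 and Pms2 had more than 1 entry. The GC box of Ercc4 and Rev1 and the CCAAT of Ercc4 were not in every entry, so the member shares are somewhat raised. The median GC content was 59.6% for members and 58.8% for promoters of genes tested. A match describes letters in this window and is not evidence of binding.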

How the data were processed

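Per the labels' protocols, polyA libraries were made from germ cell RNA of high integrity. The submitters' processing notes list kallisto 0.48.0 and featureCounts, the trimmers fastp 0.23.2 and Trimmomatic, DESeq2 1.40.2, and build rn6, with no role or order given. The authors deposited 1 table of estimated counts per gene, not normalized, with a column per library named in the labels. How strand and shared reads were treated is not given in the sources used here. In the GRCr8 annotation 15 of the 37 listed members overlap another protein-coding gene (not Nthl1, Xrcc1 or Rev1), so reads of such pairs may be mixed.

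Counts were rounded to whole numbers and fitted in R 4.3.3 with edgeR 4.0.16 (filterByExpr, TMM, robust quasi-likelihood F test, no covariate), adjusted by Benjamini-Hochberg over 16976 genes, with a threshold of 0.05. SEs were derived from each F statistic and fold change. DESeq2 1.42.0 and limma 3.58.1 (voom) were alternatives, with other scalings, filters, a term for rat numbers (1 to 4 or 5 to 9) and each library left out. The procedure was tested on simulated data. Each rat is 1 replicate, and all 28 pairs of libraries differed by more than sampling noise (lowest chi-square per degree of freedom 6.22).

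The members, roles and lists were chosen with earlier results of these data known. Values in every library are printed for members that passed a test, had an unadjusted p below 0.05 or no overlap, had the highest or lowest CPM of their role, or are reported p53 targets. Mbd4, the fold bounds of 1.1, 1.2 and 1.5 and the promoter motifs were chosen after values were seen. Other pathway genes are named for the 5 smallest p. Levels per transcript length were planned and not run, since no lengths were at hand.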

Additional observations from a re-analysis of the deposited data

Results flagged for a closer look

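The values of the 36 members formed 72 groups of 4 libraries. In 4 of them a single library stood apart from its group, and by chance about 1 group in 20, or 3.6, would be marked. Tdg stood at 39.0 CPM in doxorubicin rat 2, below 45.4 to 46.2 CPM in the other treated rats. Parp1 stood at 603 CPM in doxorubicin rat 2, below 628 to 632 CPM. Poli stood at 21.5 CPM in doxorubicin rat 6, above 18.9 to 19.3 CPM. Neil3 stood at 8.04 CPM in control rat 4, below 9.42 to 9.69 CPM.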

How the results depend on the processing

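No repair member and no other pathway gene passed in any alternative run: limma-voom, DESeq2, RLE or library-size scaling, either other filter (none, or 1 CPM on average), the fit without robust estimation, the rat number term, or any library left out. With the threshold raised to an adjusted p of 0.1, edgeR on all libraries still called 0 members. The lowest adjusted p of a member over the alternatives was 0.0546, for Nthl1 with DESeq2. The median log2 fold change over members moved by less than the SD, over the control libraries, of the members' mean log2 CPM. Over all genes the count of 19 became 170 with DESeq2, 53 without robust fitting and 61 with the rat number term, and ran from 1 to 62 with a library left out. It was 62 when doxorubicin rat 2 was dropped, 11 for control rat 1 or doxorubicin rat 6, 3 for control rat 9, 2 for control rat 4, and 1 for control rat 5 or doxorubicin rat 8. The cause was not tested.

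The sign of 23 members held in all 16 alternatives. The 13 others had log2 fold changes of at most 0.04 in size. Leaving out libraries moved Ddb2 from -0.015 to 0.037, Ercc4 from -0.071 to 0.0061, Ercc5 from -0.056 to 0.086, Ercc6 from -0.028 to 0.013, Msh6 from -0.0031 to 0.049, Neil2 from -0.070 to 0.015 and Neil3 from -0.011 to 0.089. It moved Parp1 from -0.033 to 0.013, Parp2 from -0.055 to 0.010, Polb from -0.029 to 0.045, Poli from -0.054 to 0.029, Smug1 from -0.055 to 0.043 and Xpc from -0.046 to 0.0054. With library size only, Ercc5 was at -0.0020. Depth was lowest for Xpa, Neil1, Neil3, Polk and Polh, the 5 members below 10 CPM in controls.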
